A study of Mus musculus with 8 samples.

Results

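The genes described are those of the ovarian extracellular matrix whose symbol in the platform annotation names a collagen chain, a laminin chain, a tenascin (Tnc, Tnn, Tnr and Tnxb) or 1 of the glycoproteins fibronectin (Fn1), elastin (Eln), fibrillin (Fbn1 and Fbn2), nidogen (Nid1 and Nid2), Sparc and osteopontin (Spp1). The symbols alone chose them, and no measured value entered the choice, although the choice was made with earlier results of these data known. They came to 61 genes of the 18069 genes named on the array, namely 41 collagen, 10 laminin, 4 tenascin and 6 other genes. A single probe was named for 45 of them and 2 probes for each of the other 16, and each gene is given by the probe with the higher mean over the 8 arrays unless another is named. No probe assigned to a single gene was named for Fbn1 or Spp1, and 1 probe shared by Col9a2 and Drg2 was left out.

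Ovaries came from 4 pioglitazone-treated and 4 vehicle-treated female Lethal Yellow (LY) mice, C57BL/6J animals heterozygous for the dominant agouti allele Ay (Ay/a). LY mice express agouti in most tissues and become obese and insulin resistant with age, and both groups carried the allele. Pioglitazone, an agonist of the nuclear receptor PPARγ, was given in DMSO by gavage each day for 60 days, from 120 to 180 days of age, and vehicle mice received DMSO alone. The labels give 0.1 mg as the daily dose, and the study's methods give a lower dose. RNA of 1 ovary from each mouse was hybridised to a CodeLink Whole Mouse Genome Bioarray, with 1 array per mouse and no pooling, so that the spread between arrays holds both the spread between mice and that of the array. The stage of the cycle was not given in the sources used here. Untreated black mice were not analysed here.

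Collagens are built from 3 α chains wound into a triple helix, and they form the fibrils of the stroma, the sheets of basement membranes and the finer filaments that tie both to cells. Laminins are trimers of α, β and γ chains that assemble on the cell surface and are joined to the type IV collagen network by nidogens. In the ovary, a basement membrane surrounds each follicle and is broken down at ovulation, when vessels and stromal cells enter the forming corpus luteum. Tenascins and Sparc are matricellular proteins, which alter how cells hold to the matrix more than they build it.

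Values are relative intensity units, in which the median probe of an array is close to 1 and 0.2 is the study's limit of sensitivity. Array medians lay between 1.0068 and 1.0139, between 82.5% and 83.9% of probes on an array reached 0.2, and log2 values correlated across probes at 0.949 to 0.987 between arrays. None of the spots of these genes was missing. Levels of different probes cannot be set against each other, so the comparisons are made between mice. They are made either for 1 probe or for the sum of a set of marker probes, from which a missing spot is left out. Precision is limited by the number of arrays (4 per group). Of the 61 genes, 54 reached 0.2 on all 8 arrays, and 58 averaged 0.2 or more in either group and were tested. Col11a2, a fibrillar chain of cartilage, and Lama4, a laminin chain of vessels, stayed under 0.2 on every array. Lamc3 reached 0.2 on 1 array only, at 0.266 in pioglitazone mouse 4.

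The tissue was checked against marker lists, given as sums of the measured markers in each mouse. All 7 oocyte markers were named on the array, with summed levels of 63.1 to 109 in pioglitazone-treated mice and 61.7 to 93.3 in vehicle-treated mice. Of these, Bmp15 was measured only in pioglitazone mice 3 and 4, at 1.78 and 1.64, and enters no other sum. Granulosa markers (7 of 8 named) summed to 74.9 to 145 in pioglitazone-treated mice and 72.6 to 101 in vehicle-treated mice, and theca and stroma markers (5 of 6 named) to 158 to 411 with pioglitazone and 117 to 492 with vehicle. Of the markers that were named, only the endothelial cadherin Cdh5 stayed under 0.2 on every array. In whole ovaries, fewer cells of a type and less RNA per cell cannot be told apart.

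The sequences upstream of the transcription starts of genes on which the results below turn are shown from RefSeq (mouse build GRCm38.p6). They run 5′ to 3′ on the strand of the gene. The stretch of Col4a1 and Col4a2 was not shown to lie upstream of either start. The other sequences are trimmed to the bases that lie in no annotated gene. Tnr (chr1:159523519-159523728, plus strand) and Tnn (chr1:160153693-160153825, minus strand), the tenascins that differed most between groups, and Col17a1 (chr19:47692043-47692292, minus strand), a transmembrane collagen that differed, were chosen for that reason. Col1a2 (chr6:4505368-4505617, plus strand) stands for the type I collagen genes, which varied widely between mice. For Col4a1 and Col4a2, 2 genes read in opposite directions, the stretch (chr8:11312805-11312826, plus strand) is bounded by their annotated starts, both included. Whether it lies between the genes or within both was not tested. Capitals mark TATAAA or CCAAT on either strand.
Tnr: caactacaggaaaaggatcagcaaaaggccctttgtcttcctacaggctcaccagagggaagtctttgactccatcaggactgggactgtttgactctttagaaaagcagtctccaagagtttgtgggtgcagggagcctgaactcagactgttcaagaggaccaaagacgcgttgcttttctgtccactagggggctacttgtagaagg
Tnn: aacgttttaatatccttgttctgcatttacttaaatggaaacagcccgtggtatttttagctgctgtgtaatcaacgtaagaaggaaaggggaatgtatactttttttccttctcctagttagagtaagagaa
Col17a1: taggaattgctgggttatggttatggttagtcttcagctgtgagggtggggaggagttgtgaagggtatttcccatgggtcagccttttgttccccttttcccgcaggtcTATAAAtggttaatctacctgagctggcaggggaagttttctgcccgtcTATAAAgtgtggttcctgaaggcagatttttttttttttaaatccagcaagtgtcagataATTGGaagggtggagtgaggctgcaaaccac
Col1a2: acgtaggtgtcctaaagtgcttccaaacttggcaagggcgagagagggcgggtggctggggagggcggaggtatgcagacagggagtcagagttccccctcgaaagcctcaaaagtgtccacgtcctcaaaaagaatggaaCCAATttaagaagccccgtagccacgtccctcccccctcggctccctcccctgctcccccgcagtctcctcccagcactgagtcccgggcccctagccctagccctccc
Col4a1 and Col4a2 shared start: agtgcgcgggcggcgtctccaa

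Promoter windows, from 250 bases before to 50 after the start, were found for 44 of the 61 genes, with 49 windows in all. TATAAA was present on either strand in 7 of the 49 windows, for 6 genes (Col10a1, Col11a2, Col13a1, Col17a1, Col3a1 and Tnc). It was present in 13.6% of all 32851 mouse windows. CCAAT was present in 16 of the 49 windows, for 16 genes, and in 37.4% of all windows. Tnn, Col1a2, Col4a1 and Col4a2 were among these genes. The matches of Tnn, Col4a1 and Col4a2 lie outside the stretches shown above. The letters AGGTCA, which nuclear receptors bind, were found in 9 of the 49 windows, for 9 genes, and in 16.3% of all windows. PPARγ binds with its partner to a direct repeat, 2 copies of AGGTCA with any 1 base between them. That repeat was in none of the 49 windows and in 0.0396% of all. These are matches of letters within a short window and say nothing of whether a factor binds there.

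No gene of the group passed the adjusted test between pioglitazone-treated and vehicle-treated mice. Of the 58 genes tested, 33 had a negative and 25 a positive log2 fold change of pioglitazone over vehicle, with a median of -0.07 and a range of -0.999 (Col4a2) to 0.43 (Col14a1). The median over all 30634 probes tested was -0.03. Negative values made up 56.9% of the 58 genes, against 56.6% of named genes. The balance of signs was not kept under another scaling, since quantile normalization gave 30 positive and 28 negative values with a median of 0.007 (all probes -0.002), and cyclic loess gave 31 positive and 27 negative. At an unadjusted p under 0.05 in limma, Tnr was higher, and Eln and Col17a1 were lower, with pioglitazone, so that 3 of 58 genes (5.17%) were called, against 4.85% of the 16065 named genes tested (1.57% higher and 3.27% lower). That share is near the background, and it is not a result about these genes. None reached an adjusted p under 0.05 in limma (smallest adjusted p = 0.837), as for 0.0% of named genes, with or without the mouse number as a block, and none did by the methods' t-test, which called 4 at an unadjusted p under 0.05, or with unequal variances, which called 2. Leaving out pioglitazone mouse 1 gave 6 calls (Col17a1, Col19a1, Col4a5, Col4a6, Col8a1 and Eln) and leaving out pioglitazone mouse 3 gave 1 (Col4a1). With the mouse number as a block, 7 of 58 (12.07%) were called, against 8.02% of named genes. The study did not state that the numbers pair the mice. The pairing was read from these same values, so calls with the block are a description.

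**Figure D1:**
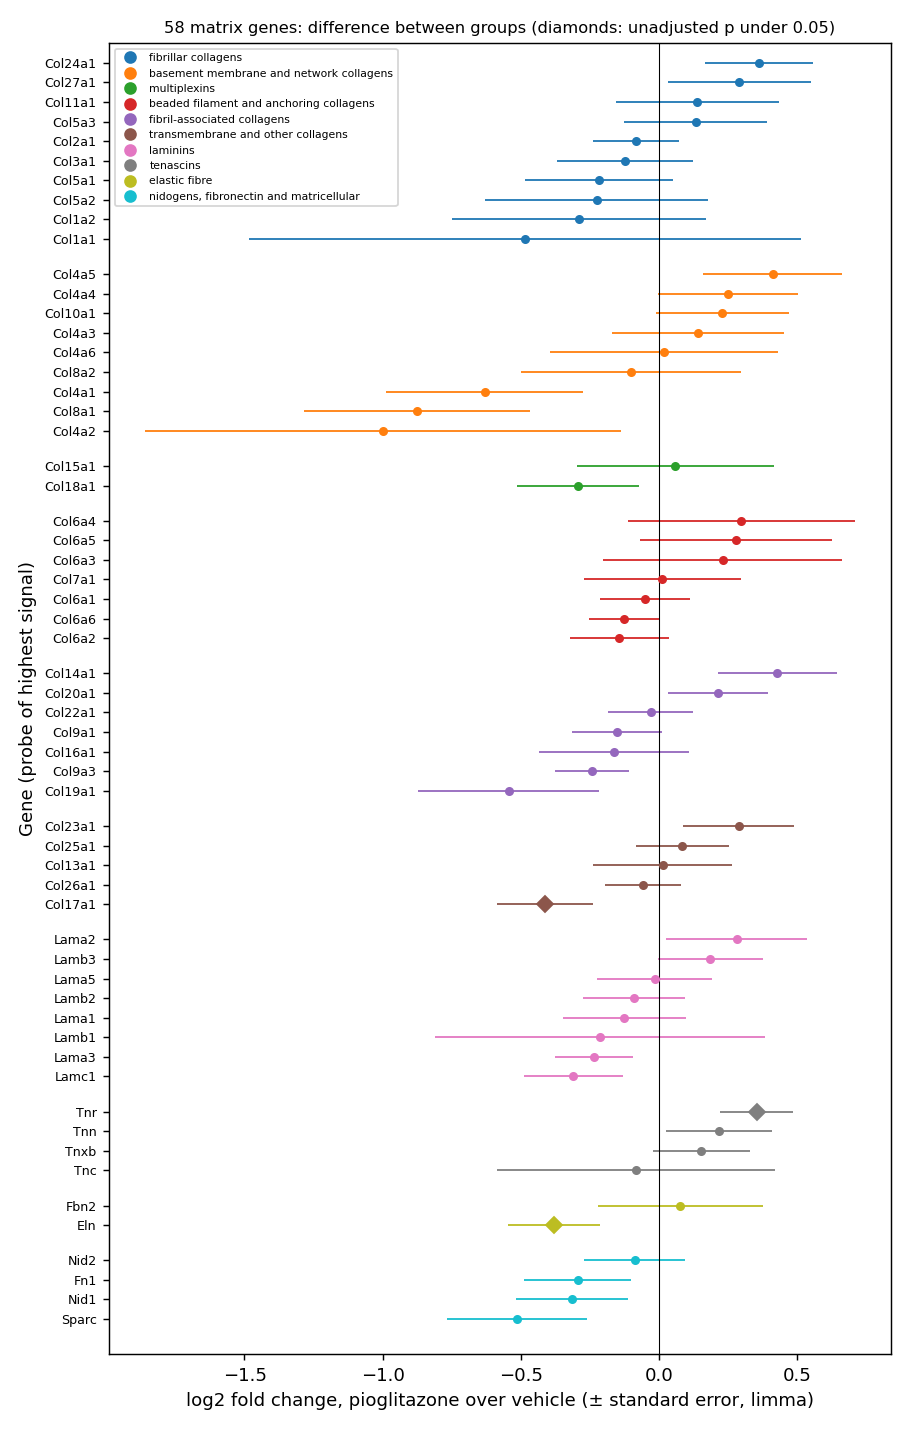
Log2 fold change of pioglitazone over vehicle (horizontal axis) for the 58 genes tested, by class (vertical axis), with bars of 1 SE from limma (n = 4 mice per group). The values run from -0.999 for Col4a2 to 0.43 for Col14a1, and diamonds mark Tnr, Eln and Col17a1, the genes at an unadjusted p under 0.05.

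Among the tenascins, Tnr stood higher in pioglitazone-treated ovaries. Tnr, tenascin R, is known mainly as a matrix protein of the nervous system. It had 1.04, 0.909, 0.933 and 0.813 relative intensity units in pioglitazone mice 1 to 4, against 0.783, 0.689, 0.706 and 0.705 in vehicle mice 1 to 4. Every pioglitazone-treated mouse lay above every vehicle-treated mouse, and within each group mouse 1 was the highest. Mean levels were 0.923 ± 0.0924 with pioglitazone and 0.721 ± 0.0420 with vehicle (SD, n = 4 each), a 1.28-fold ratio. The log2 fold change was 0.35 ± 0.13 (SE), with an adjusted p of 0.837 in limma. The 2-sided exact permutation test of Tnr alone gave an unadjusted p of 0.0286, the smallest value that 4 mice against 4 allow. It was no longer called at an unadjusted p under 0.05 without pioglitazone mouse 1 (0.30) or 3 (0.35), or without vehicle mouse 2 (0.33) or 4 (0.34). Groups that did not overlap were found for 2 of the 58 genes (3.45%), Tnr and Eln, against 4.18% of named genes.

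Tnn, tenascin N, a tenascin of bone and periosteum, had 2 probes that differed in opposite directions. The study selected Tnn on these samples, so its values are a description and not independent evidence, also where its probe of higher signal enters the counts over the 58 genes. By the probe of lower signal, which carries the accession the study listed, Tnn had 0.151, 0.0980, 0.1997 and 0.0880 in pioglitazone mice 1 to 4, against 0.279, 0.372, 0.300 and 0.271 in vehicle mice. All 4 pioglitazone-treated mice were under the limit of 0.2 and all 4 vehicle-treated mice were above it. Set against that limit, the level was at least 1.53-fold lower with pioglitazone, and the measured log2 fold change was -1.25 ± 0.26 (SE). The probe of higher signal gave 0.610, 0.849, 0.952 and 0.825 with pioglitazone, against 0.572, 0.618, 0.872 and 0.721 with vehicle. There the groups overlapped, each pioglitazone-treated mouse lay above the vehicle-treated mouse of the same number, and the log2 fold change was 0.22 ± 0.19 (SE). Which of the probes follows the transcript was not tested. Of the 12 genes with both probes tested, 6 had log2 fold changes of the same sign and 6 of opposite sign (Col23a1, Col6a4, Col6a6, Col9a1, Lama3 and Tnn).

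The other tenascins differed by less than their spread. Tnc, tenascin C, which appears in growing and healing tissue, had 25.7, 48.2, 61.8 and 17.7 in pioglitazone mice 1 to 4, against 23.2, 83.4, 40.0 and 21.9 in vehicle mice. In both groups mice 2 and 3 were above mice 1 and 4, and the log2 fold change was -0.08 ± 0.50 (SE). Tnxb, tenascin X, which binds collagen fibrils, had means of 1.80 ± 0.314 with pioglitazone and 1.61 ± 0.279 with vehicle (SD, n = 4 each) and was higher with pioglitazone in all 4 pairs of mice with the same number. Of the 4 tenascins, 3 had a positive log2 fold change, with a median of 0.19, and with quantile or cyclic loess normalization all 4 did.

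**Figure D2:**
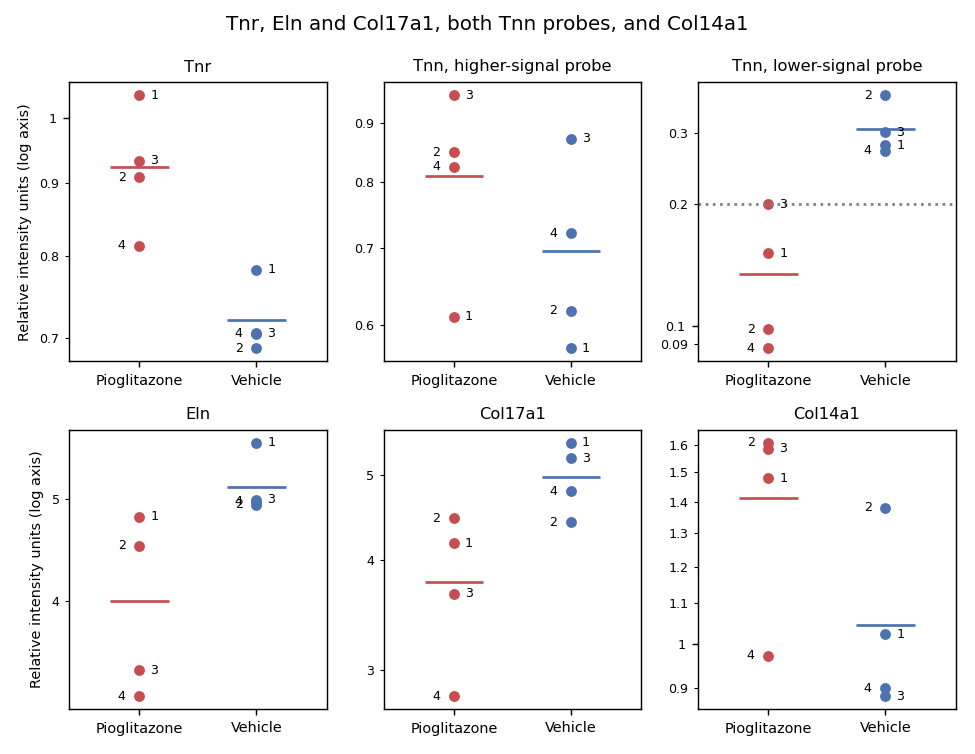
Relative intensity on log axes (vertical) of Tnr, Eln, Col17a1, both Tnn probes and Col14a1 in each mouse, with pioglitazone left of vehicle, mouse numbers beside the points and lines at the group means. The groups do not overlap for Tnr, for Eln or for the Tnn probe of lower signal, where all pioglitazone values lie under the dotted line at 0.2.

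Eln and Col17a1 were the genes with lower levels in pioglitazone-treated mice at an unadjusted p under 0.05. Elastin is the core of the elastic fibre and is found in the walls of vessels. Eln had 4.81, 4.52, 3.44 and 3.25 in pioglitazone mice 1 to 4, against 5.66, 4.94, 4.99 and 4.97 in vehicle mice. The highest pioglitazone value lay below the lowest vehicle value, and pioglitazone mice 3 and 4 were apart from mice 1 and 2. Means were 4.00 ± 0.776 with pioglitazone and 5.14 ± 0.346 with vehicle (SD, n = 4 each), and the log2 fold change was -0.38 ± 0.17 (SE, adjusted p = 0.837 in limma, exact permutation p = 0.0286). The second Eln probe was under 0.2 on all arrays and was not tested. Fbn2, which encodes a fibrillin of the microfibrils on which elastin is laid, had a log2 fold change of 0.08 ± 0.30 (SE).

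Col17a1 encodes a transmembrane collagen that anchors epithelial cells at hemidesmosomes. Its values were 4.18, 4.46, 3.66 and 2.81 in pioglitazone mice 1 to 4, against 5.43, 4.42, 5.22 and 4.79 in vehicle mice. Only pioglitazone mouse 2 reached the vehicle range, where it was just above vehicle mouse 2. The log2 fold change was -0.41 ± 0.17 (SE, adjusted p = 0.837 in limma, exact permutation p = 0.0571). Neither Eln nor Col17a1 kept its call with quantile normalization (-0.32 and -0.35) or cyclic loess (-0.31 and -0.34). The call of Eln was also lost with no filter on dim probes (-0.38), without pioglitazone mouse 3 (-0.31) or 4 (-0.29) and without any 1 vehicle mouse (-0.33 to -0.40), and that of Col17a1 without pioglitazone mouse 3 (-0.40) or 4 (-0.28) or without vehicle mouse 1 (-0.37), 3 (-0.39) or 4 (-0.43).

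The other transmembrane and unclassed collagens showed no call. Col23a1, a transmembrane chain, had means of 1.99 ± 0.207 with pioglitazone and 1.66 ± 0.387 with vehicle, and Col26a1 of 3.75 ± 0.271 with pioglitazone and 3.91 ± 0.431 with vehicle (SD, n = 4 each). Vehicle mouse 3 was low for Col23a1, at 1.09, and without it the remaining vehicle values overlapped those of pioglitazone-treated mice.

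In the fibrillar class, which gives the ovarian stroma its fibres, no gene was called, and both chains of type I collagen varied widely between mice of 1 group. Col1a1, the α1 chain of type I collagen, had 0.508, 4.59, 9.13 and 1.13 in pioglitazone mice 1 to 4, against 0.793, 4.15, 11.1 and 2.51 in vehicle mice. Mice 2 and 3 were the high ones and mice 1 and 4 the low ones in both groups, with an 18.0-fold range within pioglitazone and a 14.0-fold range within vehicle. The log2 fold change was -0.48 ± 1.00 (SE, adjusted p = 0.946 in limma). Col1a2, whose product joins that of Col1a1 in the same helix, had 4.89, 18.0, 24.7 and 11.9 with pioglitazone, against 10.1, 21.2, 16.3 and 16.6 with vehicle. Mouse 1 was again the lowest of each group, and the log2 fold change was -0.29 ± 0.46 (SE). Col3a1, the type III chain of loose connective tissue, varied less, with means of 118 ± 26.0 with pioglitazone and 130 ± 39.3 with vehicle. Col5a2, a type V chain that sets the width of type I fibrils, is the neighbour of Col3a1 on chromosome 1 and ranged from 10.7 to 30.6 with pioglitazone and from 13.5 to 35.4 with vehicle. Col27a1, a chain known from cartilage, had 20.5 ± 5.25 with pioglitazone and 17.0 ± 4.81 with vehicle (SD, n = 4 each). The 10 fibrillar genes tested had a median log2 fold change of -0.10, with 6 negative and 4 positive values, and 5 of each with quantile or cyclic loess normalization.

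The lowest log2 fold change of the 58 genes, that of Col4a2, was among the basement membrane and network collagens, with as wide a spread. Col4a1 encodes the α1 chain of type IV collagen, the sheet-forming chain of every basement membrane. Its values were 15.7, 20.5, 33.5 and 11.5 in pioglitazone mice 1 to 4, against 20.4, 35.5, 43.8 and 22.4 in vehicle mice. Each pioglitazone-treated mouse lay below the vehicle-treated mouse of its number, while the groups overlapped. Col4a2, the partner chain, had 0.490, 5.54, 10.0 and 4.23 with pioglitazone, against 2.59, 10.6, 10.4 and 6.40 with vehicle. It too was lower in all 4 pairs, and mouse 1 was the lowest of each group, most of all pioglitazone mouse 1. Log2 fold changes were -0.63 ± 0.36 for Col4a1 and -0.999 ± 0.86 for Col4a2 (SE, adjusted p = 0.843 and 0.879 in limma). With the mouse number as a block both were called at an unadjusted p under 0.05 (adjusted p = 0.575 each in limma), and Col4a1 was called without the block once pioglitazone mouse 3 was left out (-0.91). Lower levels in all 4 pairs were found for 9 of the 58 genes (15.52%), against 13.5% of named genes. They were Col4a1, Col4a2, Col6a6, Col9a1, Col9a3, Eln, Lama3, Nid1 and Sparc, each by its probe of higher signal. The tested second probes of Col6a6 (0.01) and Lama3 (0.25) had positive log2 fold changes. That of Col9a1 was higher in all 4 pairs (0.73 ± 0.24, SE), with 3 values under 0.2.

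The remaining network chains had differences in either direction. Col4a4, a chain of the kidney type of the network, had 4.60, 3.21, 2.84 and 3.63 with pioglitazone, against 4.30, 1.94, 2.84 and 3.22 with vehicle, and its mice 2 and 3 were below mice 1 and 4 in both groups. Col8a1, of the network under vessel endothelium, had 0.244, 0.180, 0.102 and 0.126 with pioglitazone, against 0.236, 0.370, 0.515 and 0.143 with vehicle, a log2 fold change of -0.88 ± 0.41 (SE) that rests on values near the limit, with 4 of 8 mice under 0.2. At an unadjusted p under 0.05 it was called with quantile or cyclic loess normalization, where only Col8a1 and Tnr were called (2 genes), and without pioglitazone mouse 1 or vehicle mouse 4. Col8a1 was singled out after its values were seen. Of the 9 genes in this class, 5 had positive and 4 negative values, with a median of 0.02.

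No beaded filament or anchoring collagen was called. Type VI collagen forms beaded filaments around stromal cells, and its chains Col6a1 and Col6a2, which neighbour each other on chromosome 10, had log2 fold changes of -0.05 ± 0.16 and -0.14 ± 0.18 (SE). Col6a2 had 77.8 ± 17.8 with pioglitazone and 84.8 ± 8.71 with vehicle, and Col6a1 22.8 ± 3.68 with pioglitazone and 23.5 ± 2.80 with vehicle (SD, n = 4 each). The third chain, Col6a3, varied more, with 30.4, 35.6, 20.2 and 22.6 in pioglitazone mice 1 to 4, against 37.7, 26.1, 8.45 and 31.3 in vehicle mice. Mouse 3 was the lowest of each group, by a wide margin with vehicle. Col6a4 had 29.6, 18.2, 11.5 and 22.0 with pioglitazone, against 29.5, 9.27, 10.4 and 20.9 with vehicle, which placed mice 1 and 4 above mice 2 and 3 in both groups. All 7 genes of the class were tested, with 4 positive and 3 negative values and a median of 0.01.

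The fibril-associated collagens sit on the surface of fibrils and space them, and the largest differences in the class were in opposite directions. Col19a1, singled out after its values were seen, had 1.21, 0.383, 0.754 and 1.01 in pioglitazone mice 1 to 4, against 1.33, 0.998, 1.25 and 0.957 in vehicle mice. Pioglitazone mice 2 and 3 lay below every vehicle-treated mouse, and the log2 fold change was -0.54 ± 0.33 (SE, adjusted p = 0.848 in limma). Col14a1 had the largest positive fold change of the 58 genes, with 1.48, 1.61, 1.59 and 0.972 in pioglitazone mice 1 to 4, against 1.02, 1.38, 0.883 and 0.900 in vehicle mice. Pioglitazone mouse 4 lay within the vehicle range and the other pioglitazone-treated mice above it. The log2 fold change was 0.43 ± 0.22 (SE, adjusted p = 0.837 in limma, exact permutation p = 0.0857), and it was called at an unadjusted p under 0.05 with the mouse number as a block (adjusted p = 0.575), without pioglitazone mouse 4 (0.60) and without vehicle mouse 2 (0.57). Higher levels in all 4 pairs of mice with the same number were found for 9 of the 58 genes (15.52%; Col14a1, Col20a1, Col23a1, Col24a1, Col4a4, Col6a4, Tnn, Tnr and Tnxb), against 6.7% of named genes. The tested second probes of Col6a4 (-0.19 ± 0.15, SE) and Tnn were instead lower in all 4 pairs. Those of Col23a1 and Col4a4 had log2 fold changes of -0.03 and 0.03. The fibril-associated Col16a1, Col20a1 and Col22a1 had log2 fold changes of -0.16 ± 0.27, 0.22 ± 0.18 and -0.03 ± 0.15 (SE). The class held 7 genes, 5 of them with negative values and a median of -0.15, and 4 with quantile or cyclic loess normalization. The multiplexins, basement membrane collagens whose ends can be released as inhibitors of vessel growth, were Col15a1, at 0.06 ± 0.36, and Col18a1, at -0.29 ± 0.22 (SE).

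No laminin was called. Of the 10 chains, 8 were tested, with 6 negative values, 2 positive ones and a median of -0.11 (5 and 3 with quantile normalization, 4 and 4 with cyclic loess). Lamc1, the γ1 chain shared by most laminins, had 8.14, 8.29, 8.82 and 6.21 in pioglitazone mice 1 to 4, against 11.4, 10.9, 7.67 and 9.15 in vehicle mice. Vehicle mouse 3 was the only vehicle-treated mouse inside the pioglitazone range, and without it the log2 fold change of -0.31 ± 0.18 (SE) became -0.42 and was called at an unadjusted p under 0.05. Lama1, an α chain of early basement membranes, had 18.4 ± 4.36 with pioglitazone and 20.0 ± 4.69 with vehicle, and Lamb2, a β chain, 14.1 ± 2.73 with pioglitazone and 14.9 ± 1.96 with vehicle (SD, n = 4 each). Lama2, the α chain known best from muscle, had 13.2 ± 2.26 with pioglitazone and 11.3 ± 4.00 with vehicle. Lamb1, singled out after its values were seen, had 0.880, 5.32, 5.52 and 3.31 with pioglitazone, against 3.91, 4.26, 1.64 and 5.67 with vehicle. The low mice were pioglitazone mouse 1 and vehicle mouse 3, so that here the mice of the same number did not go together.

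The nidogens, Fn1 and Sparc all had negative log2 fold changes, though not under every scaling. Sparc, a collagen-binding glycoprotein that follows type IV collagen in basement membranes, had 129, 111, 132 and 85.6 in pioglitazone mice 1 to 4, against 135, 197, 228 and 110 in vehicle mice. Vehicle mice 1, 2 and 3 lay above every pioglitazone-treated mouse, mouse 1 only just, and vehicle mouse 4 did not. Means were 114 ± 21.4 with pioglitazone and 167 ± 54.2 with vehicle (SD, n = 4 each), with a log2 fold change of -0.51 ± 0.25 (SE, adjusted p = 0.837 in limma), and Sparc was called at an unadjusted p under 0.05 with the block (adjusted p = 0.575) and without vehicle mouse 4 (-0.69). Nid1, the nidogen that ties laminin to type IV collagen, had 12.8, 12.1, 13.6 and 8.59 with pioglitazone, against 13.5, 16.0, 17.8 and 11.3 with vehicle, lower in each of the 4 pairs but with overlapping groups. Fn1, the fibronectin that cells grip through integrins, had 17.4 ± 4.01 with pioglitazone and 21.1 ± 2.65 with vehicle (SD, n = 4 each). With Nid2, at -0.09 ± 0.18 (SE), the median of the 4 log2 fold changes was -0.30, and 3 of the 4 were negative with quantile normalization.

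**Figure D3:**
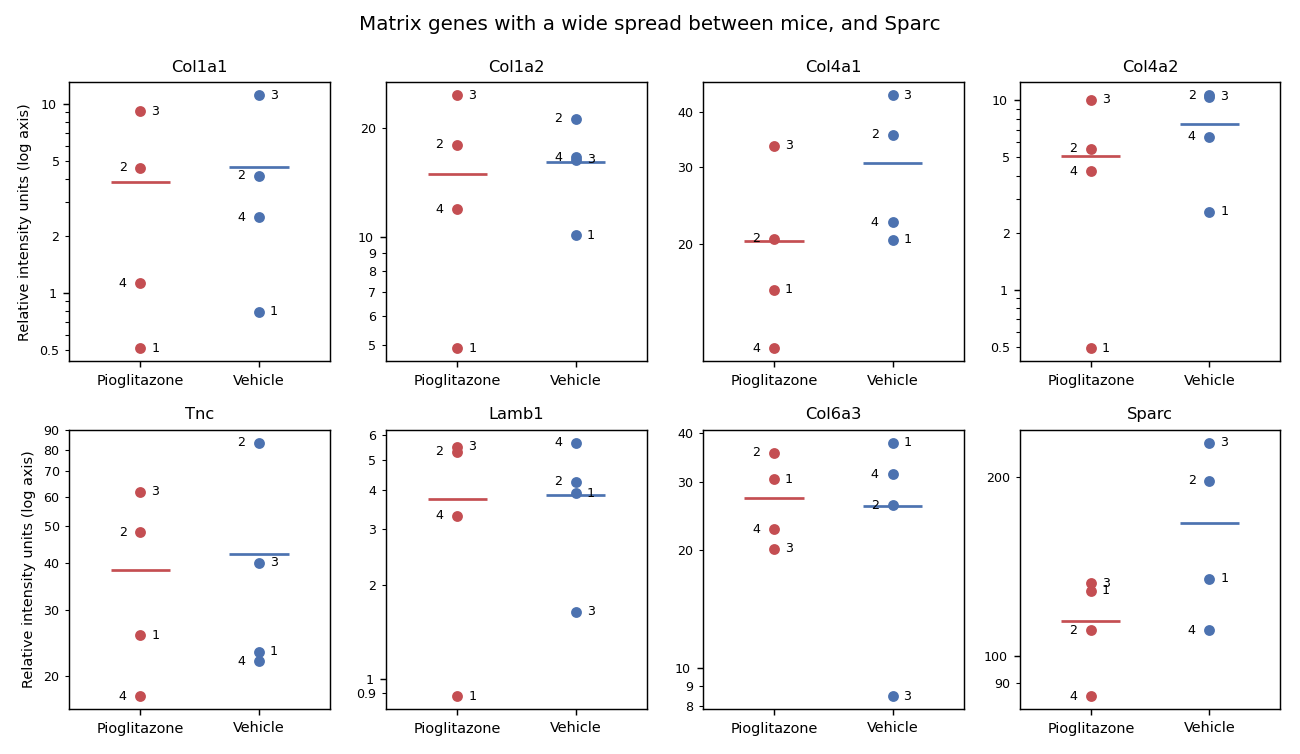
Relative intensity on log axes (vertical) of Col1a1, Col1a2, Col4a1, Col4a2, Tnc, Lamb1, Col6a3 and Sparc in each mouse, with pioglitazone left of vehicle, mouse numbers beside the points and lines at the group means. Mice 2 and 3 lie above mice 1 and 4 in both groups for Col1a1, Col4a1, Col4a2 and Tnc.

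The spread between mice of 1 group was wide for several of these genes. The median residual SD on the log2 scale was 0.38 for the 58 genes and 0.30 for all named genes tested, and 11 of the 58 (19.0%) were among the top 10% of probes by residual SD, against 10.9% of named genes. Col1a1 had a residual SD of 1.745 and Col4a2 of 1.504, with a 21.9-fold range over the 8 mice for Col1a1 and a 21.7-fold range for Col4a2. Over the 8 mice, 30 genes (51.7%) had a range of 2-fold or more, against 41.7% of named genes. In both groups mice 2 and 3 were above mice 1 and 4 for 7 genes (12.1%; Col15a1, Col1a1, Col4a1, Col4a2, Col5a1, Col5a2 and Tnc), against 7.73% of named genes. The reverse order was seen for 8 genes (13.8%; Col11a1, Col22a1, Col23a1, Col26a1, Col4a4, Col6a4, Fbn2 and Lama2), against 9.81%. The genes of a class share these mice, so such shares describe the 8 ovaries and not a treatment.

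Marker sums of other cell types were unequal between the same mice. Luteal markers (6 of 8 named) summed to 133, 251, 330 and 239 in pioglitazone mice 1 to 4, against 277, 378, 372 and 263 in vehicle mice. Theca and stroma markers summed to 411, 196, 158 and 204 with pioglitazone, against 492, 174, 117 and 331 with vehicle. Much of that sum was the theca enzyme Cyp17a1, at 228, 75.6, 9.07 and 77.9 with pioglitazone, against 297, 17.7, 7.17 and 170 with vehicle, while the stromal receptor Pdgfra ranged only from 42.5 to 60.3 with pioglitazone and from 38.9 to 64.3 with vehicle. Mouse 1 was the highest and mouse 3 the lowest of each group for Cyp17a1, an order that Pdgfra did not have. Adipocyte markers (4 of 6 named) summed to 107, 27.9, 33.0 and 14.4 with pioglitazone, against 27.3, 59.6, 36.0 and 24.3 with vehicle, so pioglitazone mouse 1 stood apart. Smooth muscle markers (6 of 6 named) summed to 268 to 326 with pioglitazone and 228 to 282 with vehicle, and endothelial markers (6 of 6) to 30.0 to 43.1 with pioglitazone and 33.9 to 46.9 with vehicle. In both lists the groups overlapped. In pairs of mice with the same number, smooth muscle sums were higher with pioglitazone in all 4, and luteal sums were lower in all 4. Single named genes were so in 6.7% and 13.5% of cases. Tagln was higher in 2 pairs and Acta2 in 3, the other smooth muscle markers in all 4. Much of the luteal sum was Hsd3b1, at 113 to 215 with pioglitazone and 197 to 242 with vehicle. It was lower in 3 pairs and Ptgfr in 2, the other luteal markers in all 4. Macrophage markers (4 of 6) summed to 43.8 to 61.6 with pioglitazone and 52.3 to 79.2 with vehicle, and the sum was lower with pioglitazone in all 4 pairs. Much of it was C1qb, at 33.2 to 60.4 over the 8 mice. Singly, C1qa was lower in all 4 pairs, C1qb and Adgre1 in 3 and Mrc1 in 2, and Adgre1 was near 0.2. At an unadjusted p under 0.05 in limma, the smooth muscle markers Myh11 (0.38 ± 0.17, SE) and Cnn1 (0.64 ± 0.26) and the granulosa marker Fst (0.66 ± 0.29) were higher with pioglitazone and the endothelial marker Emcn (-0.45 ± 0.16) was lower, with an adjusted p of 0.837 each. Myh11, the smooth muscle myosin, ranged from 70.9 to 86.4 with pioglitazone and from 46.3 to 69.1 with vehicle, without overlap. Such a lack of overlap was found for 4.18% of named genes. Markers of oviduct and surface epithelium (6 of 6) summed to 34.2 to 47.4 with pioglitazone and 29.5 to 51.6 with vehicle, and those of red blood cells (2 of 4) to 2.40 to 3.81 with pioglitazone and 1.86 to 6.71 with vehicle. The part of these differences in the matrix values was not tested.

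**Figure D4:**
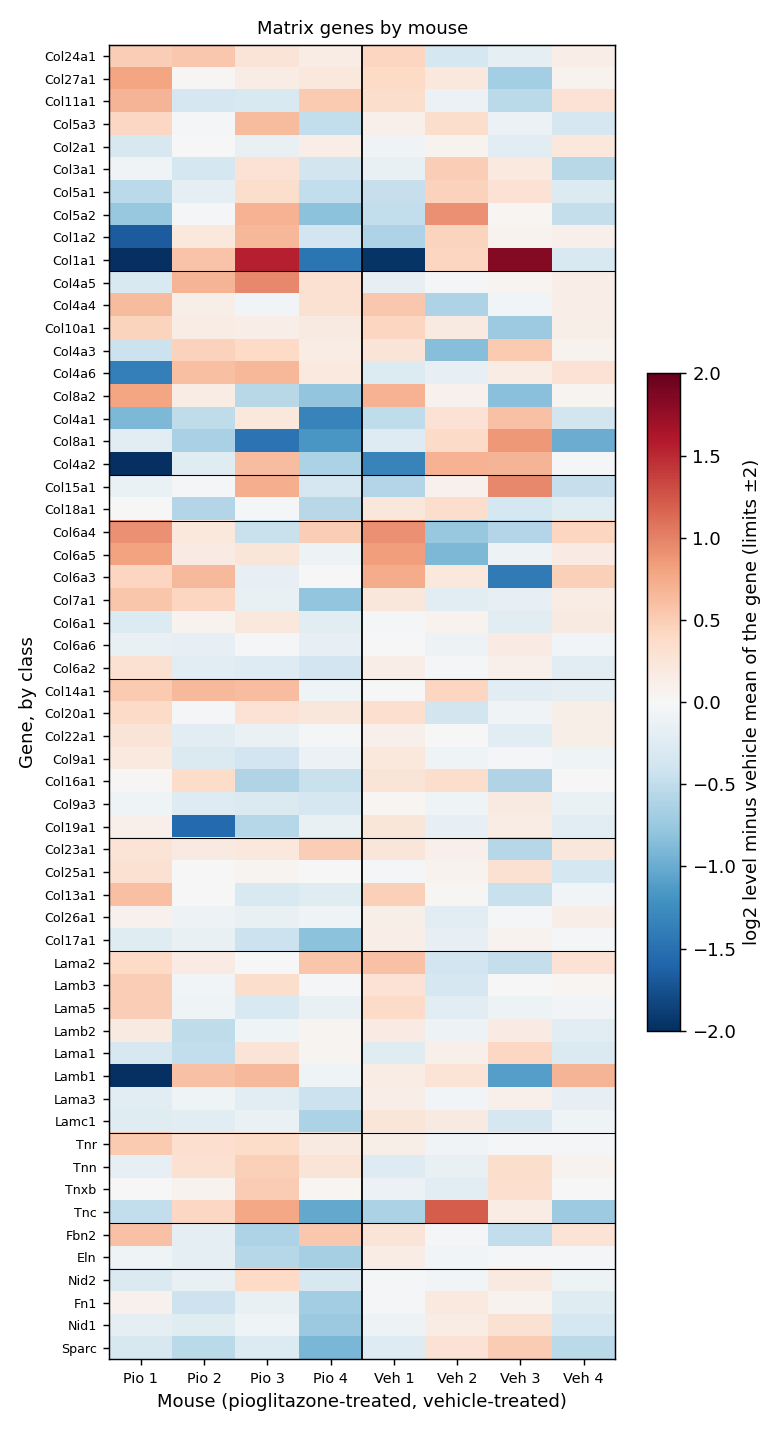
Log2 level of each gene (rows, by class) in each mouse (columns, pioglitazone mice 1 to 4 and then vehicle mice 1 to 4), relative to the mean of that gene over the 4 vehicle mice. Col1a1 and Col4a2 carry the strongest colours, with mouse 1 low in both groups.

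Genes that process, cross-link, bind or sense this matrix were listed as well, 101 of them named on the array and 86 tested. At an unadjusted p under 0.05 in limma 6 were called, 2 higher and 4 lower with pioglitazone (6.98%, against 4.85% of named genes), and none at an adjusted p under 0.05 (smallest adjusted p = 0.837). The count was 2 without pioglitazone mouse 4, 3 without vehicle mouse 2 and 2 without vehicle mouse 3. No share over all genes was set beside those counts. Signs were 34 positive and 52 negative, and 44 and 42 with quantile normalization. Of the 6 calls, 4 fell among the 24 tested genes of collagen processing and cross-linking (16.7%, against 4.85% of named genes). In that list 19 log2 fold changes were negative (79.2%, against 56.6% of named genes), and the median was -0.21. With quantile or cyclic loess normalization 16 were negative.

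Pcolce, which enhances the cleavage of the procollagen end by Bmp1 and its relatives, had 112, 55.5, 87.1 and 72.6 in pioglitazone mice 1 to 4, against 131, 131, 134 and 86.4 in vehicle mice. Pioglitazone mice 1 and 3 lay inside the vehicle range and the log2 fold change was -0.59 ± 0.24 (SE, adjusted p = 0.837 in limma, exact permutation p = 0.0857). Tll1, a procollagen-cleaving protease of that family, had 1.81, 1.94, 1.72 and 1.55 with pioglitazone, against 2.15, 2.23, 2.68 and 2.13 with vehicle, with no overlap and a log2 fold change of -0.39 ± 0.14 (SE, exact permutation p = 0.0286). Tgm2, a transglutaminase that cross-links matrix proteins, went the other way. It had 0.299, 0.272, 0.295 and 0.353 with pioglitazone, against 0.218, 0.139, 0.109 and 0.217 with vehicle, again with no overlap (0.89 ± 0.24, SE, exact permutation p = 0.0286), although its levels were near 0.2. P4ha3, a prolyl hydroxylase subunit, had a log2 fold change of -0.63 ± 0.23 (SE), with 4 of 8 values under 0.2. Groups that did not overlap were found for 3 of the 86 related genes tested, against 4.18% of named genes. These were Tll1, Tgm2 and Ppib, of the same list, which was not called (-0.20 ± 0.13, SE).

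The other lists held few calls. Frem2, a basement membrane protein, was the only call among 11 basement membrane partners (-0.49 ± 0.21, SE), and Itga8, an integrin chain, the only one among 17 receptors (0.49 ± 0.19, SE). No call was made among 8 small leucine-rich proteoglycans (median 0.03), 10 elastic fibre partners (median -0.04) or 16 matricellular and hyaluronan genes (median -0.04). In the last of these, Postn, periostin, a matricellular protein of fibrous tissue, had 1.27, 7.85, 5.67 and 1.27 in pioglitazone mice 1 to 4, against 1.10, 2.02, 1.54 and 0.975 in vehicle mice. Pioglitazone mice 2 and 3 lay above all other mice and the log2 fold change was 1.11 ± 0.60 (SE, adjusted p = 0.841 in limma). With the mouse number as a block, Postn, Tinagl1 and Itga5 were added to the calls at an unadjusted p under 0.05 and Frem2 was lost, which made 8 calls (adjusted p = 0.575 at the smallest).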

How the data were processed

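CodeLink arrays of 8 ovaries were analysed. The deposited table holds 1 linear intensity per probe and array, which the authors corrected for background and divided by the slide median. The methods also name a step that divides each gene by its median, which was not seen in the values. The table's code for a missing spot was read as missing. After division of every array by its median, intensities below 0.05 were set to 0.05 and log2 values taken. The difference of pioglitazone minus vehicle was estimated by limma (version 3.58.1, under R 4.3.3) with empirical Bayes moderation, and p-values were adjusted by Benjamini-Hochberg over the 30634 probes that had 3 values per group and averaged 0.2 or more in either group. Exact permutation tests were 2-sided over 70 assignments of mice, and their p-values are unadjusted. The fit was tested on simulated data. Genes were named from the platform annotation (21615 probes with 1 gene, 681 with several and 13931 with none).

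Members and lists were chosen with earlier results of these data known. The genes named are those with an unadjusted p under 0.05, the 3 with the highest mean in each class, the 1 in each class with the largest absolute log2 fold change among genes at 0.5 or more on every array, both Tnn probes, Tnr, and up to 4 of each related list. Genes listed only in a count, Col1a2, Col19a1, Col8a1, Lamb1, Nid2, the single markers and the second probes were added after values were seen. Where all values of a group were under 0.2, the fold was taken against 0.2.

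The labels number the mice within each group, and neither they nor the study state that mice of the same number were paired. The numbers were checked through the correlation of arrays, over probes, once group means were removed. Arrays with the same number correlated at 0.515, 0.181, 0.274 and 0.232, all over 0.1. On that ground alone, from these same values, the numbers were taken to pair the mice. The block and the counts over pairs rest on it, and they are no independent evidence. The 12 correlations between different numbers ran from -0.528 to 0.369, with 3 of them over 0.1, and pioglitazone mouse 3 was closer to vehicle mouse 2 (0.369) than to vehicle mouse 3. The fit without the block is given, with the block beside it where it changes a call. The alternatives were floors, scalings, filters on dim probes, variance models, other tests, the block, each mouse left out and other choices of probe.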

Additional observations from a re-analysis of the deposited data

Results flagged for a closer look

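In 6 of the 118 groups of 4 mice that were examined, 1 mouse lay far from the other 3 by Dixon's ratio of gap to range, and chance alone gives about 1 in 20 groups. With pioglitazone, mouse 1 was high for Col10a1 (ratio 0.841, level 0.340), mouse 4 was low for Col14a1 (0.834, level 0.972), mouse 3 was high for Col6a6 (0.935, level 0.967) and mouse 3 was high for Tnxb (0.888, level 2.27). With vehicle, mouse 3 was low for Col23a1 (0.833, level 1.09) and mouse 1 was high for Eln (0.918, level 5.66). Without vehicle mouse 1 the Eln log2 fold change was -0.33, and without pioglitazone mouse 4 that of Col14a1 was 0.60. Without vehicle mouse 3 or pioglitazone mouse 3, neither Col23a1 nor Tnxb was called at an unadjusted p under 0.05.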

How the results depend on the processing

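No gene of the matrix group reached an adjusted p under 0.05 in limma under any alternative. The count at an unadjusted p under 0.05 was 3, and it was 6 with array weights, 5 with the second probe of a gene and 1 to 6 with 1 mouse left out. With the mouse number as a block, which treats mice of the same number as pairs, it was 7. No share over all genes was set beside the counts with array weights, the second probe or unequal variances. Over all probes the count was 2635 with the block, against 1685 without it and 737 to 2443 with 1 mouse left out. Of the named genes the block added Col14a1, Col4a1, Col4a2 and Sparc and changed no other call. The median log2 fold change of -0.07 was 0.007 with quantile normalization and -0.07 to -0.03 with 1 mouse left out. The count of related genes, 6, was 2 with unequal variances and 2 to 8 with 1 mouse left out. The Tnn log2 fold change turned negative with the mean over its probes (-0.519) and by the second probe (-1.255). Of the calls over all probes 35.8% were higher with pioglitazone, 46.3% with quantile and 46.8% with cyclic loess normalization. Over 813 values of named genes under an alternative, 22 lost a call, 11 gained one, and 45 changed sign, of which 2, both for Tnn, were past the threshold after the change. The causes were not tested. Signals near 0.2 and 4 arrays per group limit what can be seen.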
